A study of Mus musculus with 6 samples.

Results

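A group of 9 transcription factors of resting and central T cells was examined in regulatory T cells (Tregs) of the bone marrow (BM). They were Tcf7, Lef1, Satb1, Bach2, Foxo1, Foxo3, Foxp1, Id3 and Klf3. Each is 1 row, found by its name, among the 36930 features of each expression table, so the group holds 9 of 36930 features. The genes were chosen by their role together with their measured difference between CML and naive libraries, since earlier results of the same libraries were known when the group was proposed. The levels of these 9 genes are therefore given as a description, with no p-value, and counts of them past a threshold support nothing.

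RNA was sequenced from FACS-purified BM Tregs of 3 mice with chronic myeloid leukemia (CML) and 3 naive mice, with 1 library per mouse. All mice, naive mice included, carried the Foxp3-DTR-GFP allele, which marks Foxp3-expressing cells with GFP, and were 8 weeks old. CML was induced by intravenous transfer of BCR-ABL1-GFP-transduced LSKs (lineage-negative, Sca-1+ c-Kit+ stem and progenitor cells) into syngeneic recipients that were not irradiated, and the Tregs were taken at day 15. The recipients thus kept their own hematopoiesis, and the leukemia cells carry GFP as well. Levels are read as RPKM, that is, reads scaled by the length of the gene and by the reads of the library. The sources used here do not name the unit, and comparisons of levels between different genes rest on this reading.

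TCF-1, encoded by Tcf7, and LEF-1 bind DNA through HMG boxes and are best known for maintaining naive, memory and stem-like T cells. FOXO1 and FOXO3 are forkhead factors that are kept out of the nucleus by AKT, and FOXP1, another forkhead factor, restrains activation of naive T cells. BACH2 and KLF3 are repressors, SATB1 organizes chromatin in T cells and their precursors, and ID3 binds E proteins and keeps them off DNA.

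The libraries differed in depth. The steps between low values gave an estimate of 829181 to 7613827 reads for the CML libraries and 5187987 to 9751911 reads for the naive libraries. CML replicate 2 was the shallowest. Treg identity was checked on 6 markers, and their summed level was 1418 to 2005 RPKM in CML and 1414 to 1607 RPKM in naive libraries (exact 2-sided permutation test, p = 0.3). Foxp3 alone was 299 to 468 RPKM in CML and 297 to 367 RPKM in naive libraries. Ctla4 was 205 to 222 RPKM in CML and 142 to 178 RPKM in naive libraries, without overlap, whereas the other markers overlapped. The sum therefore does not show that each marker was alike. Of the markers of other cells, the summed level of 8 erythroid genes, none of them at 0 in every library, was 41.8 to 242 RPKM in CML and 4.18 to 29.5 RPKM in naive libraries, with no overlap (p = 0.1 in the exact 2-sided permutation test, the smallest that 3 against 3 allows). The 10 myeloid markers summed to 23.6, 217 and 219 RPKM in the CML libraries and to 33.2, 62.4 and 54.4 RPKM in the naive libraries (exact permutation p = 0.4), so CML replicates 2 and 3 stood above all naive libraries and CML replicate 1 below them. The 2 CD8 T cell markers summed to 51.1 to 74.2 RPKM and 26.2 to 58.7 RPKM (exact permutation p = 0.2). The 5 stem and progenitor markers summed to 13.6 to 24.4 RPKM and 14.8 to 20.4 RPKM (exact permutation p = 0.6), and the 3 NK cell markers to 0 to 5.64 RPKM and 0.214 to 1.05 RPKM (exact permutation p = 1). The part of erythroid and myeloid RNA in the differences given next was not tested.

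Promoter sequences were taken from RefSeq (GRCm38.p6) as windows from 250 bases before to 50 bases after each annotated start site, and 19 windows covered all 9 genes. The TCF/LEF core CTTTGA reads TCAAAG on the other strand. It was in a window of 3 of 9 genes (Lef1, Bach2 and Foxp1), and in 18.2% of the 27025 genes with windows. By window, it was in 1 window of each of these 3 genes, and in 5257 of all 32851 windows. The 9 genes hold 19 windows, more per gene than the 32851 windows of all 27025 genes. Shares of genes are therefore not comparable between the 9 genes and all genes, for any of the 4 motifs. Lef1 is at chr3:131110297-131224357 on the plus strand, and the window with its matches lies before a start site inside the gene, at chr3:131156044-131156293. Bach2 is at chr4:32238413-32586109 on the plus strand, and its window, also before a start site inside the gene, is chr4:32417185-32417434. Both are shown because they hold the match and no annotated exon base, with the match in capitals.
Lef1: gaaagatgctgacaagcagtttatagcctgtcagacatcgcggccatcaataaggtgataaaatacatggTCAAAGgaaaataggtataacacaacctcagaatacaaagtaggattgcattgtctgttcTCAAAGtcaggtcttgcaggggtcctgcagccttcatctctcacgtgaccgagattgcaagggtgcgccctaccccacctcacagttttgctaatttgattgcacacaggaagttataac
Bach2: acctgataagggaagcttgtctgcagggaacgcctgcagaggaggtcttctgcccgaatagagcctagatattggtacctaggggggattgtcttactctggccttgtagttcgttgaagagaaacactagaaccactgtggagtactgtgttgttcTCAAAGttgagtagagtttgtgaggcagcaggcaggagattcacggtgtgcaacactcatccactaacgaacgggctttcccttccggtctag
In Lef1 the 2 matches begin at -180 and -120 relative to the start site, and in Bach2 the match begins at -93. The forkhead core GTAAACA was in a window of 1 of 9 genes, Tcf7, and in 4.05% of all genes. Tcf7 lies at chr11:52246527-52283383 on the minus strand. The match begins at 2 relative to a start site inside the gene, so it lies after that start site. It is shown in capitals within the 30 bases at chr11:52282577-52282606.
Tcf7: acctttataggaGTAAACAgacccccgcca
The KLF core GGGTGTG was in a window of Tcf7, Satb1 and Id3 (9.05% of all genes), and the bZIP site TGAGTCA in none of the 9 (5.95% of all genes). All 4 motifs were searched on both strands without regard to overlap with other motifs. A match in these windows is a description of the letters and not a binding site.

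Tcf7 had the highest level of the group in naive Tregs and the largest difference. It was at 287, 455 and 218 RPKM in the 3 naive libraries and at 70.6, 85.8 and 72.4 RPKM in the 3 CML libraries. Every CML library lay far below every naive library, and the 3 CML values were close to each other. The mean was 76.3 ± 8.31 RPKM (SD, n = 3) in CML and 320 ± 122 RPKM (n = 3) in naive Tregs, 4.19-fold apart. On the log2(RPKM + 1) scale the difference, CML minus naive, was -1.99 with a standard error of 0.26. By level, Tcf7 stood at rank 169 of 13923 tested genes in naive Tregs and at rank 1241 in CML Tregs. In bulk RNA, a smaller share of cells that express a gene and less RNA per cell cannot be told apart.

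Lef1, which encodes the partner factor LEF-1, was lower in CML as well. Its naive values were 147, 177 and 132 RPKM and its CML values 74.1, 46.5 and 105 RPKM. The CML libraries spread over a wider range than the naive ones but did not reach them. The means were 75.3 ± 29.4 RPKM in CML and 152 ± 22.7 RPKM in naive Tregs (SD, n = 3 each), and the log2 difference was -1.07 (standard error 0.29).

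The proportion of the pair varied between libraries. The ratio of Tcf7 to Lef1 was 1.95, 2.57 and 1.65 in the naive libraries and 0.952, 1.85 and 0.689 in the CML libraries. The ratio of CML replicate 2 lay inside the naive range, since this library had the highest Tcf7 and the lowest Lef1 value of the CML group.

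**Figure D1:**
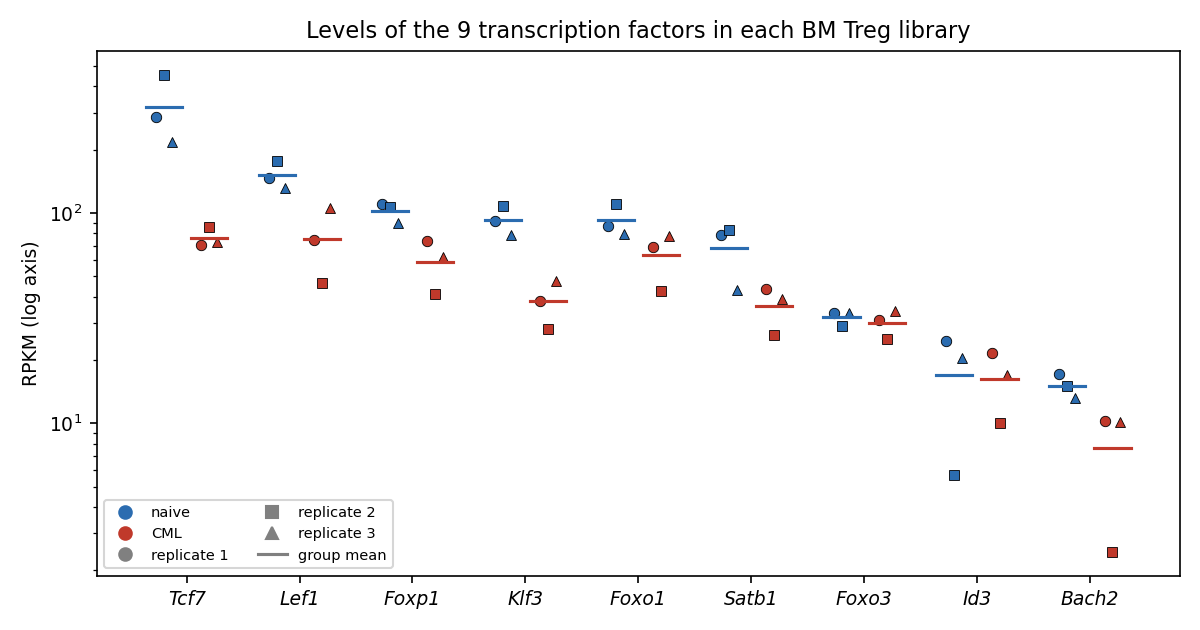
Level of each of the 9 transcription factors (RPKM, log axis) in the 3 CML and 3 naive libraries, 1 point per library, with a line at the group mean. Tcf7 shows the widest gap, from 85.8 RPKM in the highest CML library to 218 RPKM in the lowest naive library, whereas the points of Foxo3 and Id3 are mixed.

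Klf3, a zinc finger repressor of the Krüppel-like family, showed the second largest difference. It was at 91.8, 108 and 78.5 RPKM in naive and at 38.2, 28.0 and 47.8 RPKM in CML Tregs. The groups were clearly apart, and the mean was 92.7 ± 14.6 RPKM in naive and 38.0 ± 9.90 RPKM in CML Tregs (SD, n = 3 each). The log2 difference was -1.29 (standard error 0.24).

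Bach2, which encodes a repressor of effector programs, had the lowest mean. It was at 17.3, 15.02 and 13.1 RPKM in naive and at 10.2, 2.45 and 10.2 RPKM in CML Tregs. The groups did not overlap, but a large part of the mean difference came from CML replicate 2. The 2.45 RPKM of that library stand for about 18 reads, with the longest annotated transcript taken as the gene length. The 95% Poisson interval of 1.45 to 3.87 RPKM covers counting error only. The log2 difference was -1.09 (standard error 0.51), and -0.52 without CML replicate 2.

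Foxp1 was at 111, 106 and 89.2 RPKM in naive and at 73.2, 41.1 and 61.6 RPKM in CML Tregs. All CML values lay below all naive values, with means of 58.6 ± 16.3 RPKM and 102 ± 11.4 RPKM (SD, n = 3 each) and a log2 difference of -0.82 (standard error 0.24).

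Satb1, the chromatin organizer, was at 79.0, 82.6 and 42.9 RPKM in naive and at 43.4, 26.4 and 38.8 RPKM in CML Tregs. Here the groups touched, because naive replicate 3 was just below CML replicate 1. The log2 difference was -0.87 (standard error 0.31).

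The 2 FOXO genes are given side by side, and a difference between them was not tested. Foxo1 was at 86.9, 110 and 79.5 RPKM in naive and at 69.2, 42.5 and 77.7 RPKM in CML Tregs. The groups were separated by a narrow gap, and the log2 difference was -0.57 (standard error 0.26). Without CML replicate 2 it was -0.31. Foxo3 was at 33.6, 28.97 and 33.4 RPKM in naive and at 31.1, 25.1 and 34.2 RPKM in CML Tregs, with overlapping groups and a log2 difference of -0.09 (standard error 0.22). The ratio of Foxo1 to Foxo3 was 2.59, 3.81 and 2.38 in naive and 2.23, 1.69 and 2.27 in CML libraries, a small gap without overlap.

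Id3, the inhibitor of E proteins, showed no separation. It was at 24.6, 5.70 and 20.5 RPKM in naive and at 21.5, 10.1 and 17.0 RPKM in CML Tregs. The lowest value belonged to a naive library, replicate 2, where about 64 reads lie behind it. The log2 difference of 0.09 had a standard error of 0.55, and its sign depended on single libraries, from -0.51 without naive replicate 2 to 0.46 without naive replicate 1.

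Over the group, 8 of 9 genes had a log2 difference below 0, and in 6 of 9 (Tcf7, Lef1, Klf3, Bach2, Foxp1 and Foxo1) all CML libraries lay below all naive libraries. Of the 13923 genes whose mean over all libraries reached 1 RPKM, 12.2% showed that separation and 4.84% the opposite one. The limma fit with Benjamini-Hochberg adjustment called 0.129% of these genes lower and 0.0431% higher in CML at an adjusted p under 0.05, and 1 of the 9, Tcf7, was among those lower, a call that was lost when any 1 library was left out. As this contrast was used in choosing the group, nothing is read from these counts. The median log2 difference was -0.87 for the 9 genes and -0.18 for all genes tested. In the middle of that list of 9 stood Satb1 at -0.87 and Foxp1 at -0.82. Of all genes tested, 64.3% had a value below 0, and the range from their 5th to their 95th percentile was -1.38 to 0.83.

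**Figure D2:**
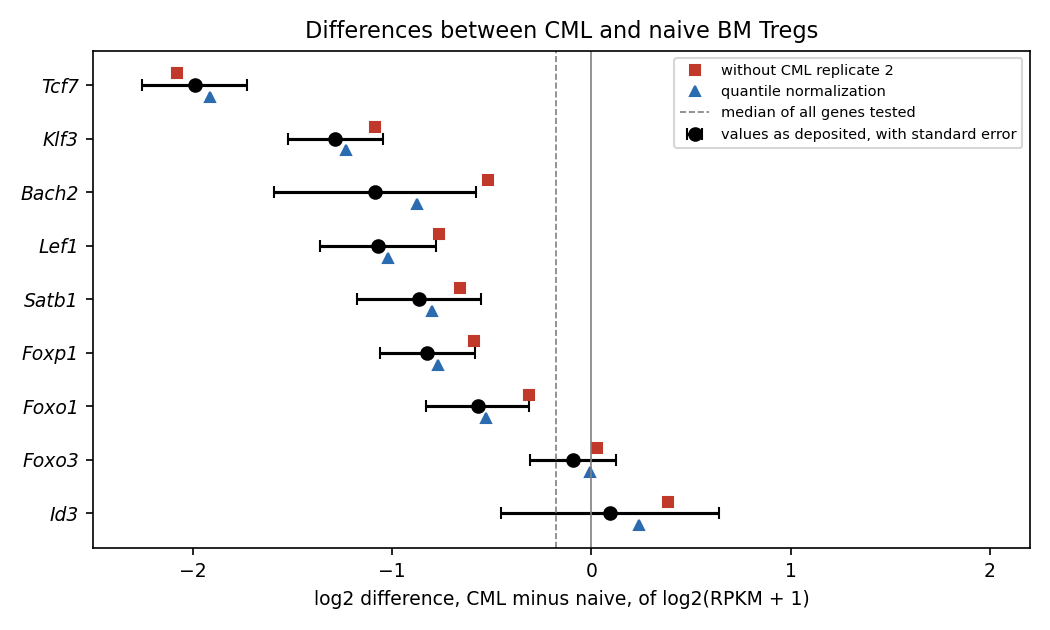
Log2 difference between CML and naive Tregs for each gene, with its standard error (black), and the same value without CML replicate 2 (red) and after quantile normalization (blue). The black points run from -1.99 for Tcf7 to 0.09 for Id3, and the dashed line marks the median of all genes, -0.18.

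CML replicate 2, the shallowest library, had the lowest CML value of 8 of the 9 genes, Tcf7 being the exception. Without it, the median of the group was -0.59 and that of all genes tested -0.03. The same 6 genes kept their separation, beside 15.9% of all genes. When the libraries were set to the same 75th percentile, Satb1 separated too, giving 7 of 9 genes beside 11.2% of all genes, and after quantile normalization 7 of 9 beside 9.12%. These 3 settings were chosen for the overlap counts after the data were seen.

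The order of the levels differed between the groups. In naive Tregs, Tcf7 stood above all others, followed by Lef1. Foxp1 (102 RPKM), Klf3 (92.7 RPKM) and Foxo1 (92.3 RPKM) came next and did not differ beyond their spread, followed by Satb1 (68.1 RPKM) and Foxo3 (32.0 RPKM). Id3 (16.9 RPKM) and Bach2 (15.1 RPKM) were lowest and could not be ordered. In CML Tregs, Tcf7 (76.3 RPKM), Lef1 (75.3 RPKM), Foxo1 (63.1 RPKM) and Foxp1 (58.6 RPKM) overlapped at the top. Klf3 (38.0 RPKM), Satb1 (36.2 RPKM) and Foxo3 (30.1 RPKM) had lower means and overlapped with each other. Single libraries of the upper and lower genes overlapped too, since Klf3 reached 47.8 RPKM and Lef1 fell to 46.5 RPKM. The 9 genes summed to 878, 1088 and 707 RPKM in the naive and to 432, 308 and 465 RPKM in the CML libraries. Tcf7 made up 32.7%, 41.8% and 30.8% of the sum in naive and 16.4%, 27.9% and 15.6% in CML libraries, so its share was lower in all CML libraries.

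**Figure D3:**
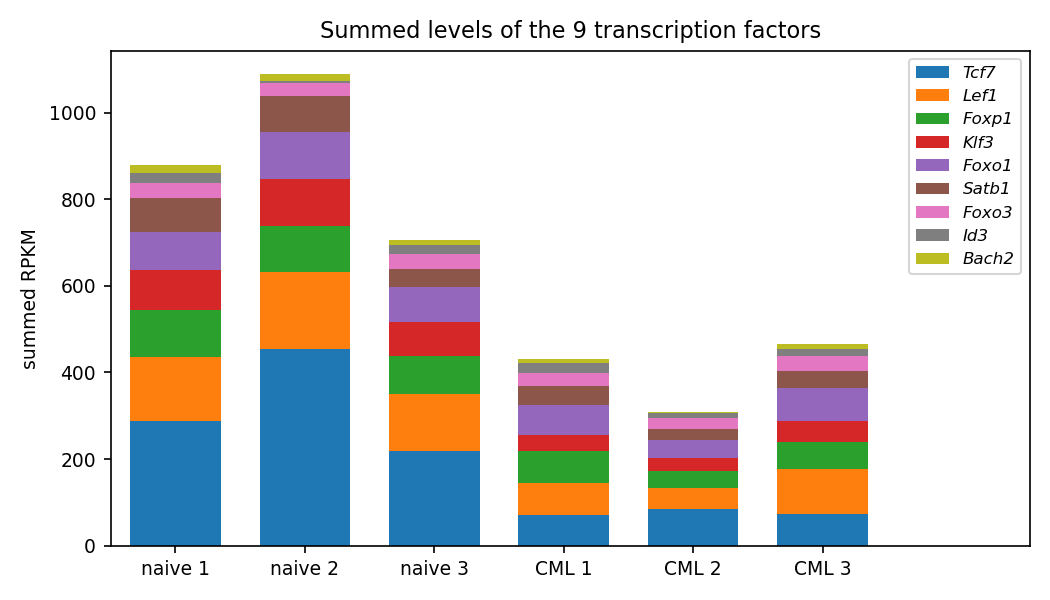
Summed level of the 9 genes in each library (RPKM, bars from 0), split by gene. The CML bars reach 308 to 465 RPKM and the naive bars 707 to 1088 RPKM, and the Tcf7 segment is the part that differs most.

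Across the 6 libraries most of the 9 genes varied together. The correlation of each gene with the mean of the other 8, on the log2(RPKM + 1) scale, was 0.98 for Foxp1, 0.95 for Lef1 and Klf3, 0.93 for Bach2, 0.91 for Foxo1 and 0.89 for Satb1. It was lower for Tcf7 (0.71) and Foxo3 (0.61), and -0.03 for Id3. These values describe 6 libraries that share the group difference and the low depth of CML replicate 2. By the same measure, the genes most like the mean of the 9 were the second entry named Dock2, Smg1, Sh3kbp1, Gm32059 and Ccnl2, with correlations of 0.99. Tcf7 was matched best by Cyth3 and BC106179, Lef1 by Srpk1 and 1810026B05Rik, and Klf3 by Arhgef3 and Stk10.

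Among the other genes of the same families and pathways, 88 of 100 on 7 lists passed the filter on low values, and 2 were called, both lower in CML. Both are known FOXO1 targets in T cells. All 7 lists were written with earlier results of these libraries known. Counts and limma adjusted p-values on the lists are therefore a description and not independent support. Klf2, which encodes a zinc finger factor that holds T cells at rest and drives S1pr1, was at 317, 327 and 230 RPKM in naive and at 91.5, 82.7 and 116 RPKM in CML Tregs. It fell 3.02-fold, with a log2 difference of -1.58 (standard error 0.20, limma adjusted p = 0.0416). S1pr1, the sphingosine-1-phosphate receptor of lymphocyte egress, was at 119, 131 and 85.1 RPKM in naive and at 34.4, 27.3 and 30.1 RPKM in CML Tregs. It fell 3.65-fold, with a log2 difference of -1.82 (standard error 0.22, limma adjusted p = 0.0356). Neither group of libraries overlapped the other for either gene, but both calls were lost when any 1 library was left out.

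Of the 15 FOXO target genes, these 2 were called, where 0.129% of all genes tested were called lower. In 8 of the 15 all CML libraries lay below all naive libraries, as in 12.2% of all genes, and the median log2 difference was -0.73 (-0.18 over all genes). Ccr7, the receptor that guides T cells to lymph nodes, had the largest difference of the list. It was at 15.9, 22.4 and 8.57 RPKM in naive and at 1.91, 4.67 and 1.92 RPKM in CML Tregs (log2 difference -2.10, standard error 0.49, limma adjusted p = 0.238). Its libraries did not overlap, and it did not pass the threshold. Of the 15 targets, 11 had a log2 difference below 0, as had 64.3% of all genes tested. Il7r, Bcl2l11, Fbxo32 and Irs2 lay above 0, at 0.08 to 0.13, with overlapping libraries. Of 13 regulators of FOXO proteins, such as AKT kinases and ubiquitin ligases, none was called by limma at the adjusted threshold. At an unadjusted limma p under 0.05, 1 of the 13 was lower in CML, as were 942 of all 13923 genes tested. All CML libraries lay below the naive ones in 2 of the 13, a share near the 12.2% of all genes. The median log2 difference of the 13 was -0.10. The 2 with the largest values, Skp2 at 0.83 and Sirt1 at -0.52, had overlapping libraries.

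TCF-1 and LEF-1 act with β-catenin and with TLE corepressors. Of 15 tested genes of this pathway none passed the adjusted threshold of limma, where 0.129% of all genes tested were called lower. At an unadjusted limma p under 0.05, 4 of the 15 were lower in CML, as were 942 of all 13923 genes. In 6 of the 15 all CML libraries lay below all naive libraries (12.2% of all genes did), and the median was -0.29. Axin2, a feedback inhibitor and common readout of Wnt signaling, was at 42.9, 50.2 and 39.2 RPKM in naive and at 19.9, 29.2 and 23.8 RPKM in CML Tregs. Its groups were apart, with a log2 difference of -0.84 (standard error 0.23, limma adjusted p = 0.285). Tle1, at -1.005, had overlapping libraries and low levels of 0 to 4.75 RPKM.

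**Figure D4:**
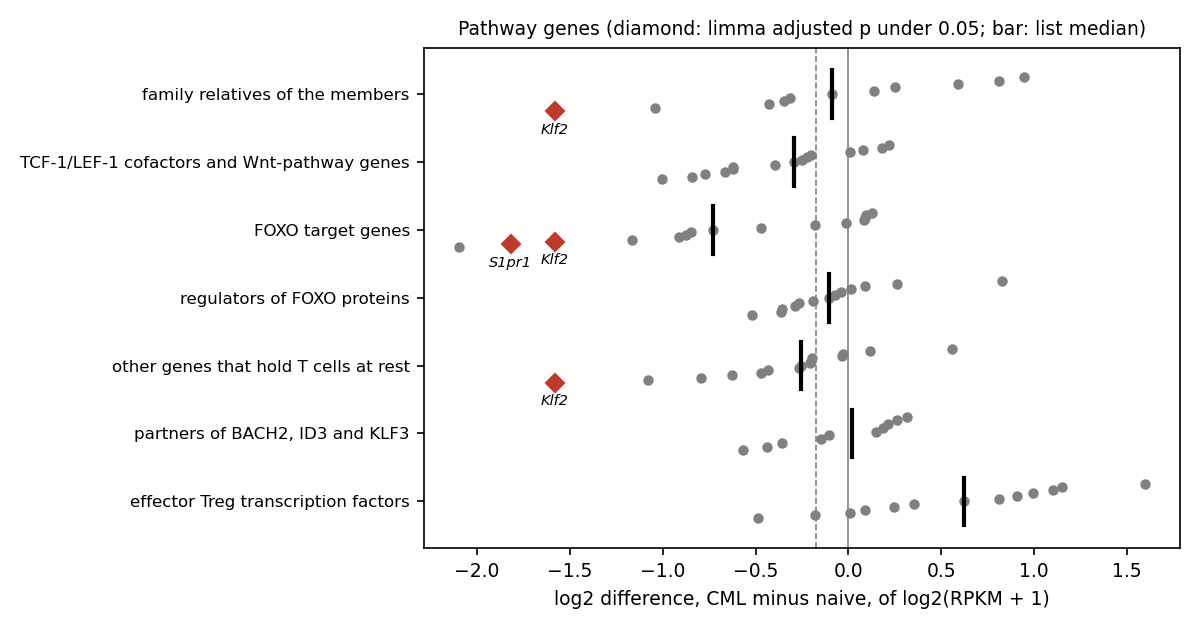
Log2 difference between CML and naive Tregs for the tested genes of each list, 1 point per gene, with a bar at the list median and the dashed line at the median of all genes. Klf2 and S1pr1 are the 2 called genes, and the effector list is the one with most points above 0 (11 of 13). Of all genes tested, 64.3% have a value below 0.

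Of 11 tested relatives of the 9 genes in their own families, Klf2 was the one called (0.129% of all genes were called lower), 4 had all CML libraries below the naive ones (12.2% of all genes), and the median was -0.09. Klf7 (log2 difference -1.04, limma adjusted p = 0.525) was among these 4, whereas Id2, Klf10 and Tcf7l2, at 0.81, 0.95 and 0.59, had overlapping libraries. Of 15 further genes that hold T cells at rest, Klf2 was again the one called, 5 had all CML libraries lower (12.2% of all genes), and the median was -0.25. Tob1, an antiproliferative factor of resting T cells, was at 29.3 ± 0.911 RPKM in naive and 14.1 ± 6.11 RPKM in CML Tregs (limma adjusted p = 0.323). Of 10 tested partners of BACH2, ID3 and KLF3, none was called by limma, separated or had an unadjusted p under 0.05 (0 of 10). Of all 13923 genes tested, 12.2% separated as lower, 4.84% separated as higher and 1348 had such a p. With 10 genes, nothing is read from 0 of 10. The median of the 10 was 0.02, with Ncor1 at -0.57 and Hdac3 at -0.44 the largest.

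Transcription factors of effector Tregs had mostly positive differences without a call by limma (0 of 13, and 0.0431% of all genes were called higher). At an unadjusted limma p under 0.05, 5 of the 13 were higher in CML, as were 406 of all 13923 genes tested. Of the 13, 4 had all CML libraries above all naive libraries, where 4.84% of all genes did, and the median was 0.62. Prdm1, which encodes BLIMP-1 of effector Tregs and is a known target of repression by BACH2, was at 19.9, 21.3 and 21.9 RPKM in naive and at 53.5, 39.4 and 51.9 RPKM in CML Tregs. The log2 difference was 1.15 (standard error 0.21), the groups were apart, and the limma adjusted p of 0.131 missed the threshold. Nfil3 had the largest value, 1.60, with overlapping libraries (limma adjusted p = 0.426).

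The balance of the effector factor to its repressor was 1.15, 1.42 and 1.67 in naive and 5.23, 16.1 and 5.11 in CML libraries for the ratio of Prdm1 to Bach2. The groups did not overlap, which had to follow, since all CML libraries were higher in Prdm1 and lower in Bach2. It adds nothing to the 2 genes taken singly. The highest ratio is from CML replicate 2 and rests on its few Bach2 reads. The ratio of Id2 to Id3 was 4.19, 3.56 and 6.29 in CML and 1.08, 10.7 and 1.85 in naive libraries. Here naive replicate 2, the library with the least Id3, exceeded all CML libraries.

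**Figure D5:**
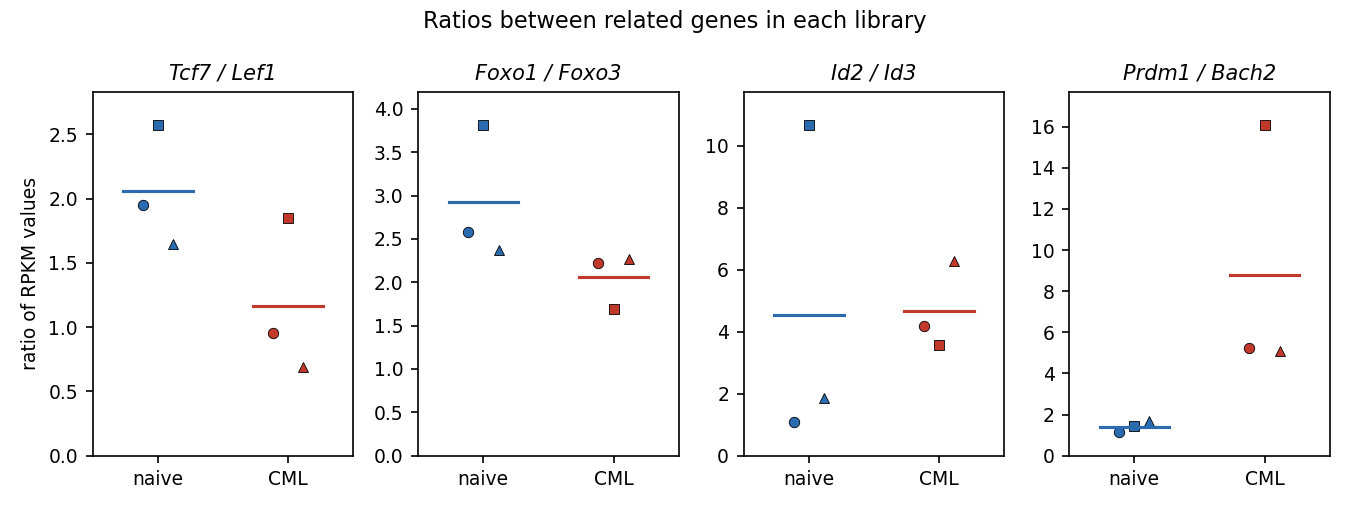
Ratios of the RPKM values of 4 gene pairs (linear axes from 0), 1 point per library, with a line at the group mean. Prdm1 to Bach2 runs from 1.67 in the highest naive library to 5.11 in the lowest CML library. This gap follows from the separation of each of the 2 genes, in opposite directions. Id2 to Id3 is spread from 1.08 to 10.7 in naive Tregs.

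Several loci hold further features whose spans, introns included, overlap those of the 9 genes. The library kit does not mark strand, so reads could be shared where exons overlap, which was not checked. Bach2os, the antisense gene of Bach2, was at 5.92, 3.64 and 2.90 RPKM in naive and at 2.06, 0 and 0 RPKM in CML Tregs. Gm19665 in the Foxp1 locus was at 6.32, 6.58 and 4.34 RPKM in naive and at 1.16, 1.47 and 1.64 RPKM in CML Tregs. Gm31684 in the Klf3 locus was at 9.75, 7.78 and 10.3 RPKM in naive and at 2.68, 3.92 and 1.83 RPKM in CML Tregs. In these 3 features all CML libraries lay below all naive libraries, as in 12.2% of all genes tested. The CML levels of the 3 features were low, and their host genes were chosen with this contrast in view, so nothing is read from this. Gm32882, also in the Foxp1 locus, was at 1.18, 2.56 and 1.92 RPKM in naive and at 1.45, 0 and 1.52 RPKM in CML Tregs, with overlapping groups. Where exons of host and feature overlap, their reads cannot be told apart. Tcf7 overlaps the end of Skp1, a ubiquitin ligase subunit named Skp1a in the tables, over 332 bases. Skp1a was at 121, 139 and 126 RPKM in naive and at 117, 98.0 and 140 RPKM in CML Tregs, with overlapping groups and a log2 difference of -0.14.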

How the data were processed

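RNA of BM Tregs from 3 CML and 3 naive mice was analyzed, with groups taken from the sample labels. Per the labels, SMART-Seq v4 libraries were sequenced on an Illumina NextSeq, and the submitters' processing notes name GRCm38 (mm10). The authors assembled reads in SeqMan NGen and quantified genes in ArrayStar. The unit of the deposited tables, taken here as RPKM, is not given in the sources used here. Value times length of short noncoding genes lay near whole steps more often (30.5% to 59.0% of products) than by chance (10%). The reads per library were estimated from these steps, and other units scaled by length would give steps too. Reads behind single genes are rough, as they rest on this estimate and on the length of the longest annotated transcript. A value of 0.001, which marks no reads, was set to 0.

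For the 13923 genes whose mean reached 1 RPKM, log2(RPKM + 1) was fitted in limma 3.58.1 (R 4.3.3) with a trended variance, and p-values were adjusted over all of them by Benjamini-Hochberg. The values are not counts, so count models were not used. Fold changes of low genes are understated on this scale. Marker sums were compared by an exact permutation test. The result of a further marker list is not reported here. The members and lists were chosen with earlier results of these data known. Named genes were all 9 members, the called genes and the 2 largest differences of each list, family relatives, the genes most correlated with the members and features in the same loci. The FOXO targets above 0 and single Treg markers were named too. Replicate numbers did not pair the libraries. Alternatives were other pseudocounts, filters, scalings, weights, a replicate block and leaving out each library.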

Additional observations from a re-analysis of the deposited data

How the results depend on the processing

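The median log2 difference of the 9 genes was -0.87 and lay between -1.17 and -0.59 under all 15 alternatives. That of Tcf7 ranged from -2.23 to -1.70 and that of Klf3 from -1.46 to -1.09, whereas Foxo3 (-0.19 to 0.03) and Id3 (-0.51 to 0.46) crossed 0. Calls were less stable. Of all genes, limma called 24 (18 lower, 6 higher), and 1348 had an unadjusted p under 0.05. A pseudocount of 0.001 gave 0 calls (1195 at unadjusted p), no filter 1, no variance trend 11, equal 75th percentiles 53 (32 lower, 21 higher), quantile normalization 53 (30 lower, 23 higher) and library weights 45. Leaving out 1 library gave 0 to 17, with 0 without naive replicate 1, 2 or 3 (842, 789 and 919 at unadjusted p), 6 without CML replicate 3, and 16 (6 lower, 10 higher) without CML replicate 2. Of the pathway genes, 2 were called, 0 with a pseudocount of 0.001, without a filter, without a trend and with any 1 library left out (0 to 0), 3 at equal 75th percentiles, and 4 with quantile normalization and with library weights. With the replicate block 1 gene in all and 0 pathway genes were called (1175 at unadjusted p). To see whether replicate numbers pair the libraries, each gene's group mean was subtracted first. The deviations left in same-numbered CML and naive libraries had correlations of -0.005, -0.002 and -0.019. The cause of these changes was not tested. Tcf7 passed the adjusted threshold as deposited, at equal 75th percentiles and after quantile normalization, where Klf3 passed too, and no member did in the other 13 alternatives. The 9 genes were chosen with this contrast in view, so nothing is read from these passes. About 829181 reads limit CML replicate 2, where 11 reads lie behind Id3 and 18 behind Bach2.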
